A study of Mus musculus with 16 samples.

Results

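The transcriptional response of adult skeletal muscle to a high-fat diet (HFD) was described in 8 of the 16 samples of the series, the 4 of the Adult-HFD group and the 4 of the Adult-NCD group. These samples were chosen by their labels for age and diet, and every gene expressed in them was tested. All mice were male C57BL/6JGpt mice without a genetic modification, and each sample came from 1 mouse. The Adult-NCD group received the normal chow diet (NCD) for 4 weeks from 8 weeks of age, and the Adult-HFD group received a diet rich in fat over the same weeks, so both were 12 weeks old when the tibialis anterior (TA) muscle was taken. The series asks how the muscle of young and of mature mice responds to such a diet. Its other 8 samples are TA muscles of juvenile mice on the same diets. Those mice received the diets for 4 weeks from 3 weeks of age and were 7 weeks old at the end. Their samples were used here only where the effect of diet was compared between ages and in an alternative fit on all 16 samples. Polyadenylated RNA was sequenced, and the deposited values are raw counts of reads per gene. Values are given below as CPM (counts scaled to library size, with TMM factors between libraries), and differences as log2 fold changes of Adult-HFD over Adult-NCD with their standard error (SE).

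Adult-NCD replicates 1 to 4 held 17546800, 18999950, 13676793 and 14789423 counts, and Adult-HFD replicates 1 to 4 held 14453214, 14060709, 14574700 and 14436333. Pearson's r of log2 CPM ran from 0.951 to 0.987 among the Adult-NCD libraries and from 0.968 to 0.985 among the Adult-HFD libraries, where genes are not independent replicates. The muscle label was checked against 5 muscle fibre genes, Acta1, Ckm, Tnnt3, Mylpf and Myh4, of which 5 were tested. Together they reached 82795, 73534, 58661 and 82298 CPM in Adult-NCD replicates 1 to 4 and 74152, 72466, 86098 and 77069 CPM in Adult-HFD replicates 1 to 4. Acta1, skeletal actin, and Myh4, the myosin of the fastest fibres, were the most abundant of them in both groups, so each library had the profile of fast muscle.

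A few libraries stood apart from the rest of their group. The root mean square distance of a library from the mean of the other mice of its group, in log2 CPM, was 0.428, 0.339, 0.622 and 0.402 in Adult-NCD replicates 1 to 4 and 0.373, 0.436, 0.349 and 0.467 in Adult-HFD replicates 1 to 4. Adult-NCD replicate 3 thus lay farthest out, and on the first principal component, which held 37.8% of the variance, it lay at -58.2 while the other Adult-NCD mice lay between -16.1 and -0.215. It also had the lowest share of counts from mitochondrial genes, 1.04%, against 5.79% to 13.1% in the other Adult-NCD mice. In the Adult-HFD group, replicate 4 lay farthest out by this distance and replicate 2 came next. Adult-HFD replicate 2 had the highest levels of tendon, adipocyte and fibroblast markers in its group, which are given with the matrix genes. For each whole list of genes, though not for parts of a list, the median log2 fold change is followed by the lowest and highest median among the fits that left out 1 mouse.

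Skeletal muscle draws its energy from glucose and fatty acids, and the balance between them is set partly at the pyruvate dehydrogenase complex, which kinases switch off, and partly by nuclear receptors of the PPAR family, which bind fatty acids and turn on genes for their use. The same fibres keep a contractile apparatus, a calcium store that couples nerve signals to contraction, and systems that build up and break down protein, and each of these responds to nutrients, hormones and activity. Fibroblasts, vessels, nerves, tendon and fat are part of the dissected tissue too, so a bulk sample holds their RNA as well.

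Of the 13940 genes tested, 28 were upregulated in the Adult-HFD group, 0.201% of the genes tested, and 7 were downregulated, 0.0502%, at an adjusted p under 0.05 by edgeR with Benjamini-Hochberg adjustment. Both directions came to 35 genes or 0.251%, and in each of these every Adult-HFD mouse lay beyond every Adult-NCD mouse. The thresholds of the study's methods were an unadjusted p under 0.05 and a log2 fold change beyond 0.5 in either direction. By these, 386 genes were higher (2.77%) and 690 lower (4.95%) with edgeR. With DESeq2, the tool of the study, they gave 529 higher and 803 lower genes. Across all genes tested the groups did not overlap for 753 higher genes (5.40%) and 657 lower genes (4.71%), and the median log2 fold change was -0.03. An unadjusted p under 0.05 was reached by 1009 higher genes (7.24%) and 1120 lower genes (8.03%), and these shares are the base for the counts by unadjusted p given below for lists. DESeq2 called 166 higher and 99 lower of 27157 genes by adjusted p. The counts by adjusted p moved with single mice. Upregulated and downregulated genes came to 12 and 4 without Adult-NCD replicate 1, 5 and 3 without Adult-NCD replicate 2, 47 and 12 without Adult-NCD replicate 3 and 16 and 2 without Adult-NCD replicate 4. They came to 6 and 2 without Adult-HFD replicate 1, 32 and 27 without replicate 2, 23 and 3 without replicate 3 and 17 and 2 without replicate 4.

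**Figure D1:**
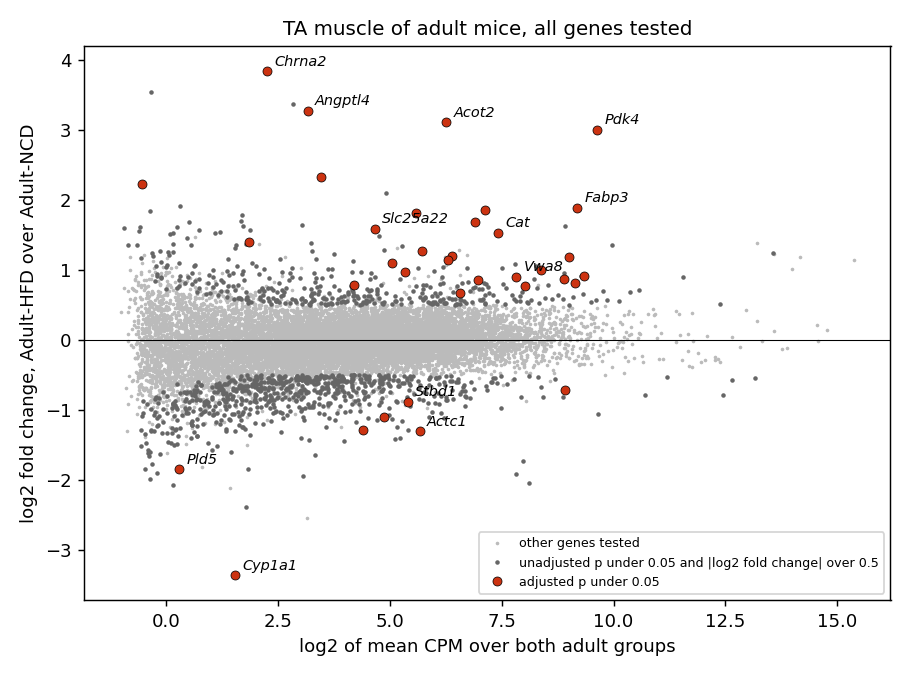
Each point is 1 of the 13940 genes tested, with its mean level in CPM on a log scale and its log2 fold change of Adult-HFD over Adult-NCD. The 35 genes with an adjusted p under 0.05 are coloured, 28 above 0 and 7 below 0.

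The upregulated genes were not all genes of fat oxidation. They included an acetylcholine receptor gene, carriers and enzymes of the mitochondrial inner membrane and matrix, a peroxisomal antioxidant enzyme and a small GTPase. The 27 lists of pathway genes written for this tissue hold 1016 genes, of which 980 were tested, and they contain 16 of the upregulated and 4 of the downregulated genes, which leaves 15 called genes in no list. Genes of lipid oxidation were the largest list among the called ones, with 11 of 41 tested upregulated, a median log2 fold change of 0.56 (0.52 without Adult-HFD replicate 4 to 0.61 without Adult-HFD replicate 3) and 20 genes without overlap. That count rests on single mice, since edgeR called 3, 2, 17 and 5 of these genes without Adult-NCD replicate 1, 2, 3 or 4 and 2, 11, 10 and 6 without Adult-HFD replicate 1, 2, 3 or 4.

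Chrna2, a nicotinic acetylcholine receptor subunit better known from neurons, rose in the Adult-HFD group from close to the lowest measurable level on chow. Its values were 0.227, 0.674, 1.4196 and 0.199 CPM in Adult-NCD replicates 1 to 4 and 12.7, 5.50, 5.62 and 12.1 CPM in Adult-HFD replicates 1 to 4. It was thus near 0 in Adult-NCD replicates 1 and 4 and clearly present in every Adult-HFD mouse, most of all in replicates 1 and 4. The log2 fold change of 3.84 (SE 0.53, adjusted p = 0.0148 by edgeR, higher in 4 of 4 mice) was the largest among the non-overlapping genes with a group mean of at least 5 CPM, though at such low counts its size depends on the prior count of the fit. Chrna2 passed in 5 of the 8 fits that left out 1 mouse, with an adjusted p of up to 0.0849 without Adult-NCD replicate 2.

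The genes that couple nerve, membrane and calcium did not move with Chrna2 as a group. Of 43 listed genes of calcium handling and excitation, 41 were tested, 24 were higher and 17 lower, with a median of 0.03 (-0.02 without Adult-NCD replicate 3 to 0.09 without Adult-HFD replicate 4). Cacna1s, the voltage sensor of the T-tubule, stood at 857, 831, 564 and 746 CPM in the Adult-NCD mice and 1034, 941, 1227 and 989.9 CPM in the Adult-HFD mice. Its groups did not overlap, but the log2 fold change of 0.48 (SE 0.15) had an adjusted p of 0.234 by edgeR, and 20.0% of its exon bases overlap another gene. Among genes of the neuromuscular junction and of denervation, 21 of 23 were tested, 13 were higher and 8 lower, with a median of 0.17 (0.10 without Adult-NCD replicate 3 to 0.20 without Adult-NCD replicate 1). No gene of this list passed edgeR's adjusted test, against 4 higher and 0 lower at an unadjusted p under 0.05 and 2 higher and 0 lower by DESeq2's adjusted p. Without Adult-NCD replicate 3, 17 and 4 were higher and lower. Chrnd, the delta subunit of the muscle acetylcholine receptor, stood at 2.33, 2.46, 1.83 and 2.32 CPM in the Adult-NCD mice and 4.93, 4.94, 4.91 and 2.87 CPM in the Adult-HFD mice. Replicate 4 was the lowest Adult-HFD mouse for Chrnd, although it was among the highest for Chrna2. The log2 fold change was 0.98 (SE 0.24), and that of Dach2, a transcription factor gene that responds to denervation, was 0.75 (SE 0.20).

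Slc25a22, Vwa8 and Ucp3, 3 of the called genes, encode mitochondrial proteins outside the respiratory chain. Slc25a22, a mitochondrial glutamate carrier, rose from 12.7 ± 1.95 to 38.1 ± 10.6 CPM (SD, n = 4). Its values were 12.1, 14.6, 10.2 and 13.8 CPM in the Adult-NCD mice and 47.0, 34.1, 24.9 and 46.5 CPM in the Adult-HFD mice. No Adult-HFD mouse came near the Adult-NCD range, and replicate 3 was the lowest of them. Its log2 fold change was 1.58 (SE 0.20), and that of Vwa8, a mitochondrial ATPase, was 0.90 (SE 0.12), each higher in 4 of 4 mice with an adjusted p of 0.0118 by edgeR. Vwa8 stood at 164, 167, 141 and 162 CPM in the Adult-NCD mice and 307, 250.1, 282 and 343 CPM in the Adult-HFD mice, with Adult-HFD replicate 2 the lowest of its group and above all Adult-NCD mice. Ucp3, the uncoupling protein of skeletal muscle, stood at 51.0, 41.3, 67.3 and 68.2 CPM in the Adult-NCD mice and 197, 145, 127 and 263 CPM in the Adult-HFD mice. The Adult-HFD mice differed among themselves, with replicate 4 at the top and replicate 3 at the bottom, and all lay above the Adult-NCD mice. Ucp3 rose by 1.69 on the log2 scale (SE 0.24, adjusted p = 0.0158 by edgeR). Slc25a22 and Vwa8 each passed in 6 of the 8 fits that left out 1 mouse, with an adjusted p of 0.0617 for Slc25a22 without Adult-HFD replicate 1 and 0.0668 for Vwa8 without Adult-NCD replicate 2, and Ucp3 passed in 5, with 0.0849 without Adult-NCD replicate 2. Slc25a34, another carrier of this family, stood at 5.90, 12.2, 19.6 and 8.27 CPM in the Adult-NCD mice and 53.5, 34.7, 30.5 and 77.4 CPM in the Adult-HFD mice and missed the threshold with an adjusted p of 0.0603 by edgeR (log2 fold change 2.10, SE 0.38, higher in 4 of 4 mice).

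Catalase, encoded by Cat, breaks down the hydrogen peroxide that peroxisomes make when they oxidise fatty acids. Cat stood at 103, 90.5, 60.7 and 98.1 CPM in the Adult-NCD mice and 271, 214, 185 and 348 CPM in the Adult-HFD mice. The lowest Adult-HFD mouse, replicate 3, was above the highest Adult-NCD mouse, and replicate 4 was the highest of all. Cat rose by 1.53 (SE 0.21, adjusted p = 0.0158, edgeR with Benjamini-Hochberg adjustment), and it passed in 5 of the 8 fits that left out 1 mouse, with up to 0.0849 without Adult-NCD replicate 2. Cat belongs to a list of xenobiotic and antioxidant genes of which 45 of 49 were tested. In that list 29 genes were higher and 16 lower with a median of 0.09 (0.07 without Adult-HFD replicate 3 to 0.13 without Adult-HFD replicate 2). Cat and Cyp1a1 were the 2 called by edgeR's adjusted test, while DESeq2 called 3 higher and 1 lower after adjustment. Ephx2, an epoxide hydrolase, had a log2 fold change of 0.77 (SE 0.16), Nqo1, a quinone reductase, 0.81 (0.23), and Keap1, the inhibitor of the antioxidant factor Nrf2, 0.31 (0.10), each without overlap and with an adjusted p between 0.105 and 0.237 by edgeR.

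Cyp1a1, the cytochrome P450 gene best known as a target of the aryl hydrocarbon receptor, moved the other way. Its values were 5.56, 4.52, 6.62 and 4.70 CPM in the Adult-NCD mice and 0.379, 0.282, 0.711 and 0.680 CPM in the Adult-HFD mice. Each Adult-HFD mouse had less than 1 CPM and each Adult-NCD mouse more than 4, so the groups were far apart at a low level. It fell by 3.36 on the log2 scale (SE 0.31, adjusted p = 0.00182 by edgeR, lower in 4 of 4 mice). Of 8 listed genes of this receptor and its targets 6 were tested, Cyp1a2 and Ahrr being too low, and 2 were higher and 4 lower with a median of -0.08. Nqo1, another target, lay the other way from Cyp1a1.

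Pdk4 encodes a kinase that shuts off pyruvate dehydrogenase and so spares glucose. It stood at 149, 114, 185 and 257 CPM in the Adult-NCD mice and 1434, 688, 824 and 2694 CPM in the Adult-HFD mice. Replicate 4 of the Adult-HFD group held several times the level of replicate 2, and the lowest Adult-HFD mouse was still far above the highest Adult-NCD mouse. The log2 fold change was 3.00 (SE 0.42, adjusted p = 0.0158, edgeR with Benjamini-Hochberg adjustment), and Pdk4 passed in 5 of the 8 fits that left out 1 mouse, with up to 0.0849 without Adult-NCD replicate 2. Of the 28 tested genes of pyruvate oxidation and the citrate cycle, 28 being listed, 21 were higher and 7 lower with a median of 0.06 (0.01 without Adult-HFD replicate 1 to 0.08 without Adult-HFD replicate 4). These counts were 17 and 11 without Adult-NCD replicate 1 and 14 and 14 without Adult-HFD replicate 1. Groups did not overlap for 7 higher and 0 lower genes. Pdk4 was the only gene of the list that passed edgeR's adjusted test, while DESeq2 called 3 higher and 0 lower after adjustment. Ogdh, of the oxoglutarate dehydrogenase complex, had a log2 fold change of 0.35 (SE 0.11).

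**Figure D2:**
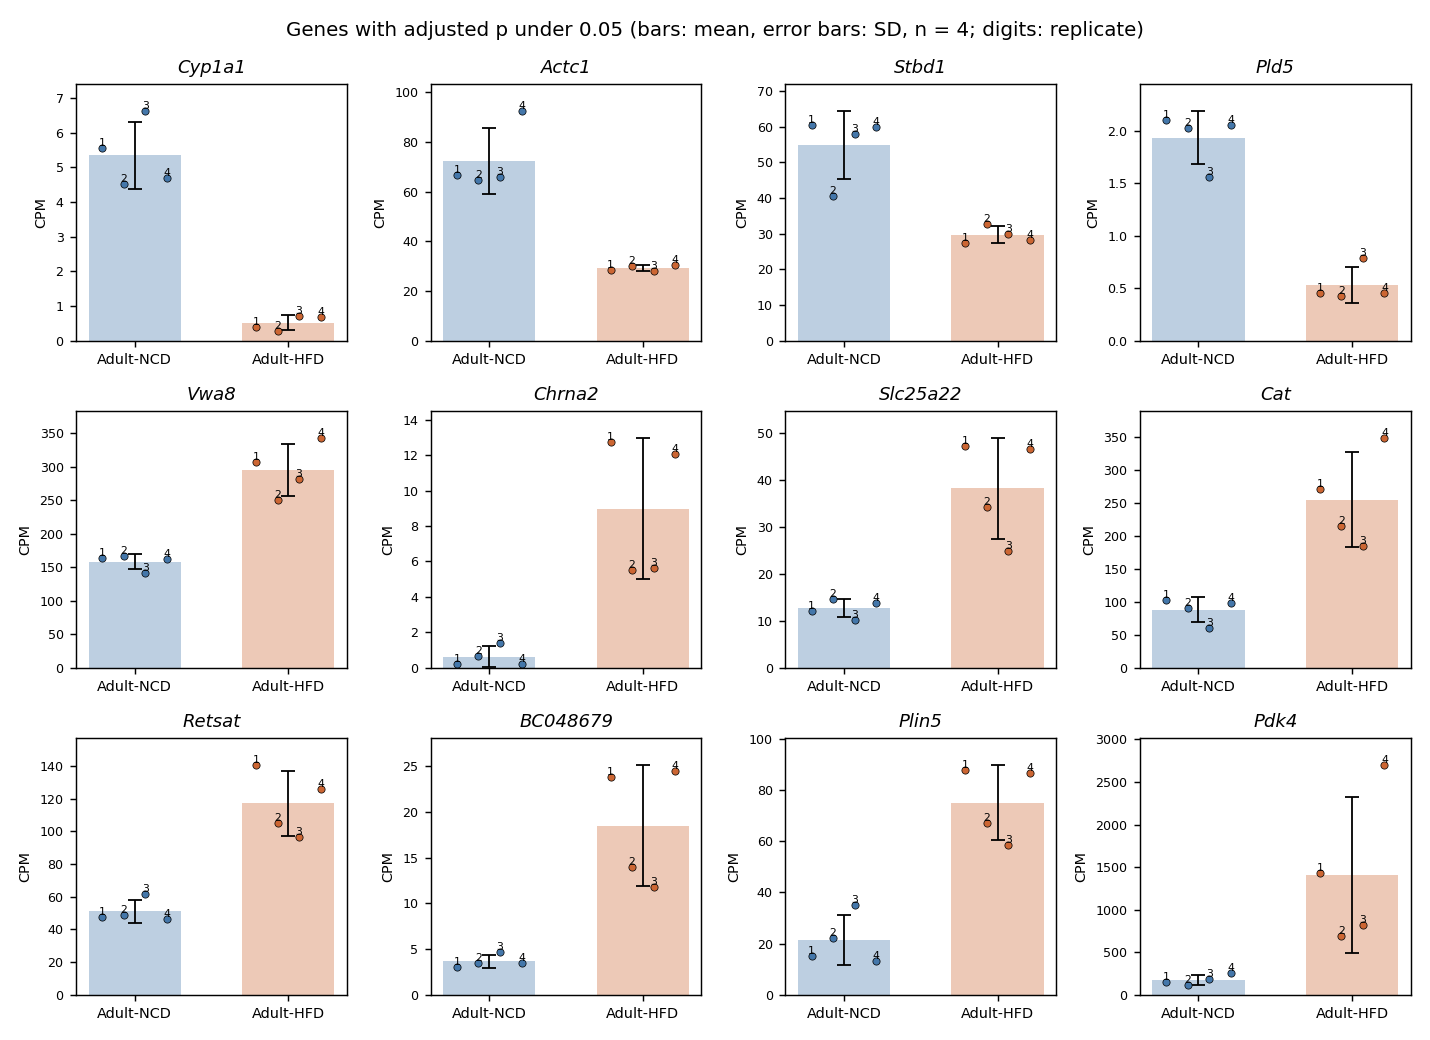
Level in CPM of called genes in each Adult-NCD and Adult-HFD mouse, 1 point a mouse, with the mean and SD of each group of 4 as a bar and whiskers. In each gene shown, the 4 Adult-HFD mice lie all above or all below the 4 Adult-NCD mice.

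Plin5 and Lipe, which act on stored fat inside the fibre, rose as well. Plin5 coats lipid droplets where they touch mitochondria, and it stood at 15.3, 22.4, 34.95 and 13.3 CPM in the Adult-NCD mice and 87.8, 67.1, 58.6 and 86.7 CPM in the Adult-HFD mice. Adult-NCD replicate 3 was the highest control mouse and still below every Adult-HFD mouse. Plin5 rose by 1.81 (SE 0.27, adjusted p = 0.0242 by edgeR, higher in 4 of 4 mice). Of the 23 tested genes of lipid droplets and lipolysis, 18 were higher and 5 lower, with a median of 0.37 (0.32 without Adult-NCD replicate 3 to 0.45 without Adult-HFD replicate 3). The 2 that passed edgeR's adjusted test were Plin5 and Lipe. After adjustment DESeq2 called 7 higher and 0 lower genes of the list, and edgeR with no filter called 8 and 0. The edgeR count also moved with single mice, up to 4 when Adult-NCD replicate 3 was left out. Dropping Adult-NCD replicate 2 left 0 called genes, as did dropping Adult-HFD replicate 1. Higher and lower genes came to 20 and 3 without Adult-NCD replicate 3 and 21 and 2 without Adult-HFD replicate 4. Of 8 tested genes of triglyceride synthesis in that list, 8 had a log2 fold change above 0, with a median of 0.52. Agpat3, an acyltransferase of this pathway, had 0.67 (SE 0.13), the droplet protein gene Plin4 0.86 (0.18) and Pnpla2, the lipase that starts triglyceride breakdown, 0.92 (0.21). Angptl4, which encodes an inhibitor of lipoprotein lipase, stood at 1.59, 1.20, 1.28 and 2.71 CPM in the Adult-NCD mice and 11.3, 11.002, 8.75 and 34.1 CPM in the Adult-HFD mice. Adult-HFD replicate 4 had about 3 times the level of the other Adult-HFD mice, and these 3 were close together. Angptl4 rose by 3.27 (SE 0.47, adjusted p = 0.0180 by edgeR). Plin5 passed in 3 and Angptl4 in 5 of the 8 fits that left out 1 mouse, with up to 0.116 and 0.110, both without Adult-NCD replicate 2.

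Retsat, a retinol saturase, Plbd1, which resembles phospholipase B, and Rab11b, a GTPase of recycling endosomes rose as well. Retsat stood at 47.7, 48.7, 61.7 and 46.4 CPM in the Adult-NCD mice and 140.2, 105, 96.7 and 126 CPM in the Adult-HFD mice and rose by 1.19 (SE 0.14, adjusted p = 0.00792, edgeR with Benjamini-Hochberg adjustment). The groups were well apart. Another gene overlaps 18.4% of its exon bases, so its counts are uncertain to that extent. Plbd1 stood at 24.7, 20.6, 14.6 and 24.2 CPM in the Adult-NCD mice and 56.0, 46.4, 36.6 and 40.2 CPM in the Adult-HFD mice, and its log2 fold change was 1.09 (SE 0.18, adjusted p = 0.0413 by edgeR, higher in 4 of 4 mice). Rab11b rose from 73.5 ± 2.22 to 117 ± 16.6 CPM (SD, n = 4), with Adult-HFD replicate 4 above the other 3 and the Adult-NCD mice close together. Retsat lost its call in 1 of the 8 fits that left out 1 mouse, where it had 0.0552 without Adult-NCD replicate 2. Rab11b passed in 2 and Plbd1 in 1 of these fits, each with up to 0.181 without Adult-NCD replicate 2.

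Besides Cyp1a1, the 7 downregulated genes were the cardiac actin gene Actc1, the collagen gene Col5a3, the matricellular gene Ccn2, the glycogen-binding gene Stbd1, the myosin light chain pseudogene Mylf-ps, and Pld5, a member of the phospholipase D family. Stbd1, which tethers glycogen to membranes, stood at 60.6, 40.5, 57.9 and 60.0 CPM in the Adult-NCD mice and 27.5, 32.8, 30.0 and 28.3 CPM in the Adult-HFD mice. Adult-NCD replicate 2 was the lowest control mouse, and the Adult-HFD mice were close together below it. Stbd1 fell by 0.88 on the log2 scale (SE 0.14, adjusted p = 0.0291 by edgeR, lower in 4 of 4 mice). Pld5 was low in every mouse, with 2.10, 2.02, 1.55 and 2.05 CPM in the Adult-NCD mice and 0.455, 0.423, 0.783 and 0.453 CPM in the Adult-HFD mice, and it fell by 1.85 (SE 0.32, adjusted p = 0.0452 by edgeR). Actc1 stood at 66.6, 64.5, 65.9 and 92.4 CPM in the Adult-NCD mice and 28.5, 30.0, 28.1 and 30.4 CPM in the Adult-HFD mice, and it passed in each of the 8 fits that left out 1 mouse. Stbd1 passed in 3 of these and Pld5 in 1, with adjusted p of up to 0.147 and 0.223, both without Adult-HFD replicate 1.

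Several called genes are pseudogenes or share sequence with another gene, and their counts are uncertain. In windows of 75 bases, 83.4% of Gm13910 is found in Hadhb, 87.1% of Rab11b-ps2 in Rab11b, 48.1% of Mylf-ps in Myl1, and 73.3% of Rps18-ps3 in other genes, mostly Gm11361. Hadhb, which encodes a subunit of the mitochondrial trifunctional protein, had a log2 fold change of 0.53 (SE 0.17), and Myl1 one of -0.30 (0.15), and neither passed edgeR's adjusted test, with adjusted p of 0.248 and 0.375. Gm13910 rose by 0.76, Rab11b-ps2 by 0.78 and Rps18-ps3 by 1.40, and Mylf-ps fell by 0.72. Fabp3 and its pseudogene are a further such pair. Chrna2, Slc25a22, Ucp3, Cat, Plin5, Angptl4, Plbd1, Stbd1 and Pld5 shared 0% of their windows with other genes.

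Promoters are shown for 4 of the called genes because nuclear receptors of the PPAR family and the aryl hydrocarbon receptor bind short elements that can be looked for in sequence. Of the 35 called genes, 25 were matched by symbol to RefSeq promoter windows on GRCm38, each with 250 bases before and 50 after the start of the gene. The letters AGGTCA, the core element of many nuclear receptors, were searched on both strands, and they stand in 16.3% of the 32851 windows of this length and in 4 of the 25, those of Cat, Cd36, Plin5 and Ucp3. A pair of them spaced by 1 base stands in 0.0396% of all windows and in 0 of the 25. The letters GCGTG, the core of the aryl hydrocarbon receptor element, stand in 32.4% of all windows and in 13 of the 25, CACGTG in 7.15% and 2, and GAANNTTC in 7.86% and 3. The percentages count windows, whereas a called gene was counted if any of its windows held the letters. A gene with several windows had more chances, so these counts and percentages are unlike measures and were not compared. The window of Ucp3 (chr7:100472741-100473040, plus strand) has AGGTCA 149 and 44 bases before the start, that of Plin5 (chr17:56117499-56117798, minus strand) 170 bases before and that of Cat (chr2:103485104-103485403, minus strand) 204 bases before. The window of Cyp1a1 (chr9:57697363-57697662, plus strand) holds 1 match to GCGTG, 54 bases before the start. Sequences are written 5′ to 3′ along the gene, with the matches named here in capitals, and a match is a description of the letters only.
Ucp3: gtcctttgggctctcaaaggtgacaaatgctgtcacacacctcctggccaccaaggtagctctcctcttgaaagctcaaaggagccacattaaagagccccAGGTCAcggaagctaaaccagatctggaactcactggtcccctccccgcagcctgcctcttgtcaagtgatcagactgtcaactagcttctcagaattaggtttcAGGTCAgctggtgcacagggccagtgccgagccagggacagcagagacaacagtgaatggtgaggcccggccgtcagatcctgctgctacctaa
Plin5: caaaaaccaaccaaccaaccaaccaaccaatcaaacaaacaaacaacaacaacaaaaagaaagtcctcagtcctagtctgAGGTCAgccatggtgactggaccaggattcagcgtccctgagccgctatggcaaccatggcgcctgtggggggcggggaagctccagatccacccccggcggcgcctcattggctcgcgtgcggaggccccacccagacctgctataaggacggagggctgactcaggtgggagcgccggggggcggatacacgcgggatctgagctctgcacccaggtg
Cat: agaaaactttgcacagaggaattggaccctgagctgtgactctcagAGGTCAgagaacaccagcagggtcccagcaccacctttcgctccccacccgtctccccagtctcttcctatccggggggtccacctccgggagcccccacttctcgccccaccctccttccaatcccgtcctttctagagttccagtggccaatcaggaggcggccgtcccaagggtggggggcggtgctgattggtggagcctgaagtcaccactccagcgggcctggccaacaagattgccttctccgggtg
Cyp1a1: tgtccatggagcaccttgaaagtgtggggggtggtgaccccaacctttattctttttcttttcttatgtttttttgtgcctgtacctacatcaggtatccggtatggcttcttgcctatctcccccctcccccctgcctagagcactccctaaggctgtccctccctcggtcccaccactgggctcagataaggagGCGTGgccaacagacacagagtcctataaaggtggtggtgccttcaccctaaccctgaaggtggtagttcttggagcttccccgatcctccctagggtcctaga

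Genes of the respiratory chain are encoded in mitochondrial DNA and in the nucleus, and no test compared these 2 lists. All 13 mitochondrially encoded subunits, 13 being listed, had log2 fold changes above 0, with a median of 1.13 (0.77 without Adult-NCD replicate 3 to 1.52 without Adult-NCD replicate 1), while 30 of 79 nuclear subunits were higher and 49 lower, with a median of -0.11 (-0.15 without Adult-HFD replicate 1 to -0.06 without Adult-NCD replicate 3). Mt-Co1, a core subunit of cytochrome oxidase and the most abundant gene by the mean of both groups, shows the spread behind the first median: mt-Co1 stood at 45163, 19996, 3580.0 and 37304 CPM in the Adult-NCD mice and 70772, 42935, 48178 and 70555 CPM in the Adult-HFD mice. Adult-NCD replicate 3 was far below every other mouse, and Adult-NCD replicate 1 lay inside the range of the Adult-HFD mice. Its counts are uncertain, since 39.8% of its windows are shared with other genes, mostly Gm29216. The adjusted test of edgeR called 0 genes of this list, DESeq2's called 1 higher and 0 lower, and an unadjusted p under 0.05 was reached by 4 higher and 0 lower genes. Past the study's thresholds were 4 of the 13 with all mice, 11, 1, 11 and 4 without Adult-NCD replicate 1, 2, 3 or 4 and 1, 4, 1 and 1 without Adult-HFD replicate 1, 2, 3 or 4. Mitochondrial genes together held 7.66% ± 5.36 (SD, n = 4) of the counts of Adult-NCD mice and 15.3% ± 3.24 of those of Adult-HFD mice, a difference of 7.65 percentage points that did not pass a 2-sided exact permutation test (p = 0.0571, where 4 mice against 4 allow 0.0286 at the least). Without Adult-NCD replicate 1 the difference was 9.46 (exact p = 0.0286) and without Adult-NCD replicate 3 it was 5.44 (exact p = 0.114). Each of the 7 fits other than that without Adult-NCD replicate 1 had an exact p between 0.0571 and 0.171.

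Among the nuclear subunits, Cox7a1 and Cox8b, the muscle isoforms of cytochrome oxidase, had the smallest p. Cox7a1 stood at 163, 156, 234 and 168 CPM in the Adult-NCD mice and 142, 122, 125 and 122 CPM in the Adult-HFD mice and Cox8b at 231, 246, 251 and 246 CPM in the Adult-NCD mice and 213, 188, 193 and 185 CPM in the Adult-HFD mice. In both, every Adult-HFD mouse lay below every Adult-NCD mouse, with log2 fold changes of -0.50 (SE 0.14) and -0.32 (0.09). With edgeR, 0 higher and 10 lower genes of the list reached an unadjusted p under 0.05 and 0 an adjusted one, while DESeq2 called 0 and 0 after adjustment. Regulators of mitochondria and nuclear receptors showed small differences: 13 of 21 tested and listed genes were higher and 8 lower, with a median of 0.13 (0.10 without Adult-HFD replicate 1 to 0.17 without Adult-NCD replicate 1) and 5 higher genes without overlap. Without Adult-NCD replicate 3 or without Adult-HFD replicate 4, 16 and 5 were higher and lower. By edgeR's adjusted test 0 genes of the list passed, 6 higher and 0 lower genes had an unadjusted p under 0.05, and DESeq2 called 1 higher and 0 lower after adjustment. Ppard, the PPAR most abundant in muscle of the 3 members, had a log2 fold change of 0.33 (SE 0.11), the corepressors Ncor1 and Nrip1 0.46 (0.13) and 0.52 (0.16), and the estrogen-related receptor Esrrg 0.45 (0.13). Of 78 cytosolic ribosomal protein genes, 29 were higher and 49 lower, with a median of -0.08 (-0.12 without Adult-HFD replicate 1 to -0.06 without Adult-HFD replicate 4) and 16 lower genes without overlap. No gene of this list passed edgeR's adjusted test, against 0 higher and 17 lower at an unadjusted p under 0.05 and 0 higher and 1 lower by DESeq2's adjusted p. Rpl41 stood at 151, 153, 198 and 149 CPM in the Adult-NCD mice and 123, 129.98, 123 and 97.6 CPM in the Adult-HFD mice, with Adult-NCD replicate 3 the highest mouse.

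**Figure D3:**
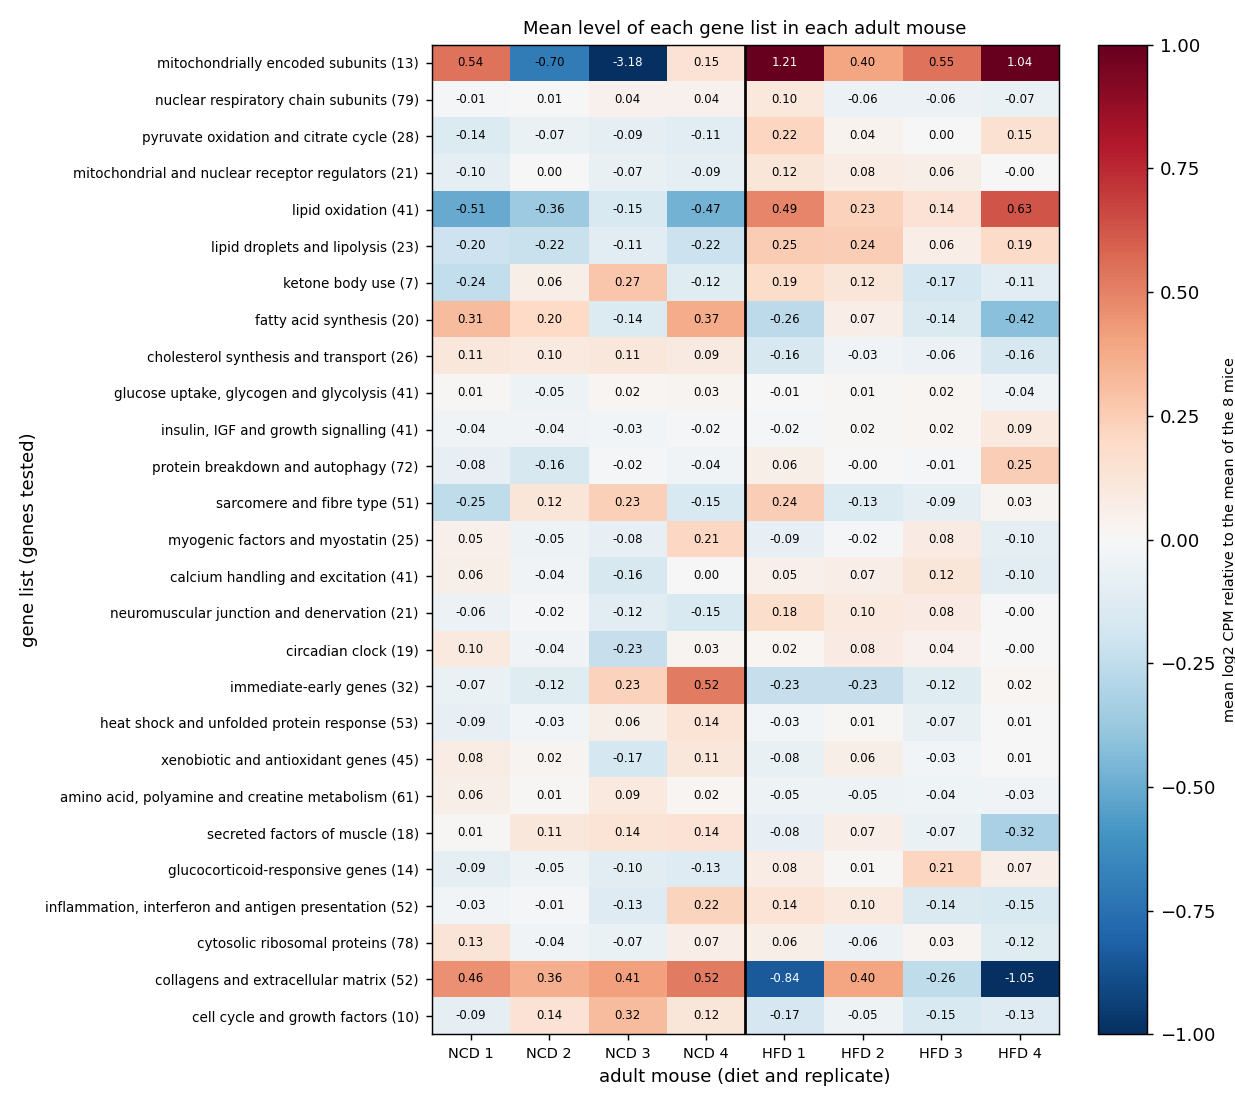
Mean log2 CPM of the tested genes of each list in each adult mouse, relative to the mean of the 8 mice, for the 27 pathway lists. The matrix list lies below 0 in Adult-HFD replicates 1, 3 and 4 and at 0.40 in replicate 2, and the mitochondrially encoded list is lowest in Adult-NCD replicate 3.

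Fat and sterol synthesis tended the other way from fat use, without a gene that passed edgeR's adjusted test in the fit of all 8 mice. Fasn, fatty acid synthase, stood at 64.1, 51.9, 28.7 and 72.3 CPM in the Adult-NCD mice and 16.1, 26.3, 23.7 and 16.015 CPM in the Adult-HFD mice. The groups were close only through Adult-NCD replicate 3, which lay just above the highest Adult-HFD mouse. The log2 fold change was -1.40 (SE 0.27, lower in 4 of 4 mice), with an adjusted p of 0.0803 by edgeR and of 0.00432 without Adult-NCD replicate 3. Of 20 tested genes of fatty acid synthesis, 5 were higher and 15 lower with a median of -0.26 (-0.28 without Adult-NCD replicate 4 to -0.18 without Adult-HFD replicate 4). The adjusted test of edgeR called 0 genes of this list, DESeq2's called 0 higher and 3 lower, and an unadjusted p under 0.05 was reached by 2 higher and 6 lower genes. Without Adult-NCD replicate 3, 3 were lower by adjusted p with edgeR. Scd2, a fatty acid desaturase, had a log2 fold change of -1.11 (SE 0.23), the citrate carrier Slc25a1 -1.03 (0.22) and Srebf1, which switches on this pathway, -0.73 (0.25). Mean levels, in log2 CPM relative to the 8 mice, were taken for the 13 tested enzymes of the list. They stood at 0.42, 0.28, -0.23 and 0.53 in the Adult-NCD mice and -0.36, 0.10, -0.19 and -0.55 in the Adult-HFD mice. Adipocyte markers had 0.40, 1.25, -0.55 and 0.27 in the Adult-NCD mice and -0.97, 1.66, -0.53 and -1.54 in the Adult-HFD mice. In both, Adult-NCD replicate 3 was lowest of its group, and Adult-HFD replicate 2 highest and replicate 4 lowest of theirs.

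In the cholesterol list 26 of 27 genes were tested, 8 were higher and 18 lower, with a median of -0.30 (-0.34 without Adult-HFD replicate 2 to -0.22 without Adult-HFD replicate 4) and 2 higher and 6 lower genes without overlap. Msmo1, an enzyme of the synthesis pathway, had a log2 fold change of -0.98 (SE 0.21), and Srebf2, which activates the pathway, -0.39 (0.11). With edgeR, 2 higher and 10 lower genes of the list reached an unadjusted p under 0.05 and 0 an adjusted one, while DESeq2 called 0 and 1 after adjustment. Npc1, which carries cholesterol out of lysosomes, had 100.4, 78.0, 79.3 and 89.3 CPM in the Adult-NCD mice and 111, 113, 111 and 243 CPM in the Adult-HFD mice, and replicate 4 stood far above the rest. Of 7 genes of ketone body use, 2 were higher and 5 lower, with a median of -0.17 (-0.27 without Adult-NCD replicate 1 to -0.12 without Adult-NCD replicate 3). By edgeR's adjusted test 0 genes of the list passed, 2 higher and 1 lower genes had an unadjusted p under 0.05, and DESeq2 called 1 higher and 1 lower after adjustment. Oxct1, the enzyme that commits ketone bodies to oxidation, stood at 467, 516, 534 and 466 CPM in the Adult-NCD mice and 353, 353, 323 and 314 CPM in the Adult-HFD mice. All Adult-HFD mice lay below all Adult-NCD mice, and the log2 fold change was -0.56 (SE 0.10) with an adjusted p of 0.0510 by edgeR, or 0.0332 without Adult-NCD replicate 3.

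Glycolytic genes lay slightly lower as a group, and a glucose uptake regulator lay higher. Of 16 tested glycolysis genes, 1 was higher and 15 were lower, with a median of -0.25 and 7 lower genes without overlap. The whole list of glucose uptake, glycogen and glycolysis had 41 tested genes and a median of -0.12 (-0.16 without Adult-NCD replicate 2 to -0.06 without Adult-NCD replicate 3). The fits that gave this range, and that of DESeq2, held 42 entries of the list, so they do not cover quite the same set. No gene of this list passed edgeR's adjusted test, against 6 higher and 6 lower at an unadjusted p under 0.05 and 2 higher and 0 lower by DESeq2's adjusted p. Without Adult-NCD replicate 3 edgeR called 2 higher genes of it, and without Adult-NCD replicate 4 it called 1. Tbc1d1, which holds back the glucose transporter GLUT4 until it is phosphorylated, stood at 159, 161, 148 and 195 CPM in the Adult-NCD mice and 272, 268, 232 and 259 CPM in the Adult-HFD mice. The groups did not overlap, and the log2 fold change was 0.64 (SE 0.11) with an adjusted p of 0.0510 by edgeR, or 0.0388 without Adult-NCD replicate 3. Fbp2, the muscle fructose bisphosphatase, had a log2 fold change of 1.04 (SE 0.22).

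Insulin and growth signalling genes differed little, and the small positive median of the list rests on Adult-HFD replicate 4. Of 41 genes, 26 were higher and 15 lower, with a median of 0.14 (0.01 without Adult-HFD replicate 4 to 0.16 without Adult-HFD replicate 2). Groups did not overlap for 9 higher and 0 lower genes of the list, beside 5.40% higher and 4.71% lower among all genes tested. In the mTOR branch 12 of 14 were higher with a median of 0.19. Without Adult-HFD replicate 4 the list had 21 higher and 20 lower genes. The mean level of the mTOR branch, in log2 CPM relative to the 8 mice, was -0.07, -0.09, -0.20 and -0.09 in Adult-NCD replicates 1 to 4 and 0.04, 0.00, 0.11 and 0.30 in Adult-HFD replicates 1 to 4, highest in that mouse. The adjusted test of edgeR called 0 genes of this list, DESeq2's called 3 higher and 0 lower, and an unadjusted p under 0.05 was reached by 9 higher and 2 lower genes. Mtor, the kinase that links nutrients to growth, stood at 60.8, 60.1, 58.4 and 52.8 CPM in the Adult-NCD mice and 81.2, 78.8, 82.9 and 105 CPM in the Adult-HFD mice. Each Adult-HFD mouse was above each Adult-NCD mouse, with replicate 4 the highest. Mtor had a log2 fold change of 0.59 (SE 0.12) and an adjusted p of 0.0906 by edgeR, Pik3r1, a regulatory subunit of PI3-kinase, 0.58 (0.13) and 0.137, and Foxo3, a transcription factor of atrophy genes, 0.42 (0.12) and 0.228. Eif4ebp1, a brake on translation, was at 151 CPM in Adult-HFD replicate 4 and at 52.4 to 67.4 CPM in the other 3.

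Genes of protein breakdown were mostly higher, with the largest values in 1 mouse. Of 72 genes, 50 were higher and 22 lower, with a median of 0.16 (0.09 without Adult-HFD replicate 4 to 0.15 without Adult-HFD replicate 2) and 11 higher and 3 lower genes without overlap. With edgeR, 15 higher and 2 lower genes of the list reached an unadjusted p under 0.05 and 0 an adjusted one, while DESeq2 called 3 and 0 after adjustment. Without Adult-NCD replicate 3 or Adult-HFD replicate 4, edgeR's adjusted test called 1 higher gene. Fbxo32, or atrogin-1, a ubiquitin ligase of muscle wasting, stood at 230.4, 235, 231 and 251 CPM in the Adult-NCD mice and 557, 401, 387 and 1581 CPM in the Adult-HFD mice. Adult-HFD replicate 4 had several times the level of the other 3 mice of its group, which in turn lay above the Adult-NCD mice. Its log2 fold change was 1.63 (SE 0.39) and 0.92 without Adult-HFD replicate 4. Fbxo21 had 0.69 (0.15), the ubiquitin ligase Cblb 0.62 (0.16) and Tfeb, which switches on lysosomal genes, 0.36 (0.09). Glucocorticoid-responsive genes, 14 tested of 14, were higher in 9 and lower in 5, with a median of 0.22 (0.15 without Adult-HFD replicate 3 to 0.29 without Adult-HFD replicate 4). By edgeR's adjusted test 0 genes of the list passed, 5 higher and 0 lower genes had an unadjusted p under 0.05, and DESeq2 called 0 higher and 0 lower after adjustment. Klf15 had a log2 fold change of 0.41 (SE 0.12) and Fkbp5 0.67 (0.22).

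The contractile genes did not shift in 1 direction. Of 54 sarcomere and fibre type genes, 51 were tested, and 27 were higher and 24 lower. The median was 0.07 (-0.03 without Adult-HFD replicate 1 to 0.12 without Adult-NCD replicate 3). Actc1 was the only one that passed edgeR's adjusted test, while DESeq2 called 2 higher and 4 lower after adjustment. Genes of the Z-disc and of stretch and remodelling were higher in 15 of 17, with a median of 0.41. Their mean level, in log2 CPM relative to the 8 mice, was -0.30, -0.06, -0.03 and -0.31 in Adult-NCD replicates 1 to 4 and 0.52, -0.13, 0.01 and 0.29 in Adult-HFD replicates 1 to 4. It was raised in Adult-HFD replicates 1 and 4, while replicate 2 lay below Adult-NCD replicates 2 and 3. Nrap, a scaffold of growing myofibrils, had a log2 fold change of 0.71 (SE 0.17) and Xirp1, which marks sites of remodelling, 0.73 (0.18), both without overlap. Slow fibre genes were higher in 4 and lower in 9 of 13. Pvalb, the calcium buffer parvalbumin of fast fibres, stood at 5577, 5834, 11006 and 5927 CPM in the Adult-NCD mice and 3833, 4370.2, 4825 and 3311 CPM in the Adult-HFD mice. Adult-NCD replicate 3 held nearly 2 times the level of the other Adult-NCD mice, and the Adult-HFD mice lay below all of these. The log2 fold changes of Pvalb and of Casq1, the calcium store protein calsequestrin, were -0.79 (SE 0.23) and -0.78 (0.22).

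Myogenic factors and the myostatin pathway, 25 tested of 26, were higher in 12 and lower in 13, with a median of -0.04 (-0.08 without Adult-NCD replicate 1 to 0.02 without Adult-NCD replicate 4). The 11 tested myogenic factors were higher in 8 and lower in 3, with a median of 0.26, and the 14 tested genes of the myostatin pathway higher in 4 and lower in 10, with a median of -0.15. No gene of this list passed edgeR's adjusted test, against 2 higher and 2 lower at an unadjusted p under 0.05 and 1 higher and 0 lower by DESeq2's adjusted p. Mef2d, a partner of the myogenic factors, stood at 296, 276, 284 and 291 CPM in the Adult-NCD mice and 351, 378, 375 and 449 CPM in the Adult-HFD mice. The groups were apart by a small step, with a log2 fold change of 0.44 (SE 0.10) and an adjusted p of 0.141 by edgeR. Inhba, an activin subunit that signals like myostatin, had -0.67 (0.22).

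**Figure D4:**
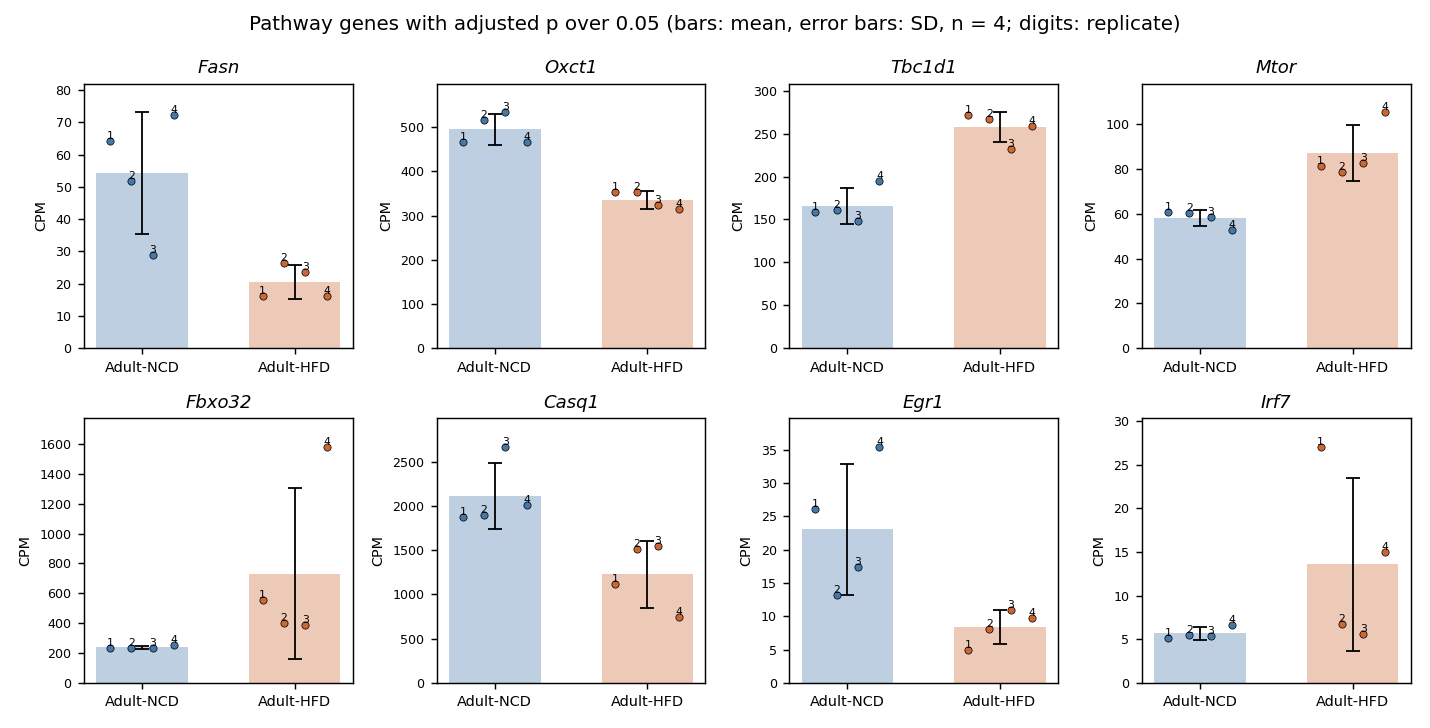
Level in CPM of genes from lists beyond fat oxidation and matrix in each Adult-NCD and Adult-HFD mouse, 1 point a mouse, with the mean and SD of each group of 4 as a bar and whiskers. Single mice such as Adult-HFD replicate 4 and Adult-NCD replicate 3 stand apart in some of the genes.

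Clock and immediate-early genes supply the 2 genes whose response to diet differed between ages. The interaction of diet and age was tested on all 16 samples, and of 14812 genes tested 2, or 0.0135%, had an adjusted p under 0.05 by edgeR. Per1, a repressor of the circadian clock, stood at 97.7, 91.5, 82.3 and 99.0 CPM in the Adult-NCD mice and 123, 128, 133 and 123 CPM in the Adult-HFD mice. Its log2 fold change was 0.45 in adult mice and -0.68 in juvenile mice, and the difference was 1.14 (SE 0.17, adjusted p = 0.0440 by edgeR, with 4 of 4 Adult-HFD mice above the Adult-NCD mice). Jun, a subunit of the transcription factor AP-1, was named after its values were seen, with 0.31 in adult mice, -1.49 in juvenile mice and a difference of 1.80 (SE 0.29, adjusted p = 0.0451 by edgeR). Jun stood at 134, 113, 143 and 172 CPM in the Adult-NCD mice and 151, 147, 191 and 208 CPM in the Adult-HFD mice, and these groups overlapped. Both interactions depend on single mice, since 11 of the 16 fits that left out 1 sample called 0 genes, and the highest count was 83, without Adult-HFD replicate 2. The adult comparison called neither Per1 (0.111) nor Jun (0.361) by edgeR's adjusted p.

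The clock genes, Per1 included, were mixed, with 9 higher and 10 lower of 19 tested from 20 listed, and a median of -0.02 (-0.09 without Adult-HFD replicate 2 to 0.08 without Adult-NCD replicate 4). The adjusted test of edgeR called 0 genes of this list, DESeq2's called 2 higher and 0 lower, and an unadjusted p under 0.05 was reached by 5 higher and 2 lower genes. The clock output factor gene Dbp had a log2 fold change of -0.61 (SE 0.20). Immediate-early genes, 32 tested of 33, were lower in 25 and higher in 7, with a median of -0.32 (-0.38 without Adult-NCD replicate 1 to -0.18 without Adult-NCD replicate 4). Lower and higher genes came to 21 and 11 without Adult-NCD replicate 4. With edgeR, 2 higher and 10 lower genes of the list reached an unadjusted p under 0.05 and 0 an adjusted one, while DESeq2 called 0 and 5 after adjustment. Their mean level, in log2 CPM relative to the 8 mice, was -0.07, -0.12, 0.23 and 0.52 in Adult-NCD replicates 1 to 4 and -0.23, -0.23, -0.12 and 0.02 in Adult-HFD replicates 1 to 4. The groups overlapped, and Adult-NCD replicates 3 and 4 were the highest mice. Egr1, which responds within minutes to activity and stress, stood at 26.2, 13.1, 17.4 and 35.5 CPM in the Adult-NCD mice and 4.93, 8.11, 10.955 and 9.67 CPM in the Adult-HFD mice. The Adult-HFD mice were below the Adult-NCD mice, among which replicate 4 was the highest and replicate 2 the lowest. The log2 fold change was -1.45 (SE 0.32), that of Dusp1, a phosphatase of stress kinases, -0.71 (0.15) and that of Klf2 -0.85 (0.19). Heat shock and unfolded protein response genes were higher in 22 and lower in 31 of 53, with a median of -0.06 (-0.09 without Adult-HFD replicate 1 to 0.02 without Adult-NCD replicate 3). By edgeR's adjusted test 0 genes of the list passed, 8 higher and 6 lower genes had an unadjusted p under 0.05, and DESeq2 called 1 higher and 1 lower after adjustment. In this list Aldh1l2, a mitochondrial folate enzyme, had -1.07 (SE 0.26) and Chac1, a glutathione-degrading enzyme, 1.02 (0.32).

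Amino acid, polyamine and creatine genes, 61 tested of 62, were higher in 21 and lower in 40, with a median of -0.11 (-0.12 without Adult-HFD replicate 3 to -0.05 without Adult-NCD replicate 3). Of the 12 polyamine genes 11 were lower. No gene of this list passed edgeR's adjusted test, against 2 higher and 9 lower at an unadjusted p under 0.05 and 1 higher and 0 lower by DESeq2's adjusted p. Amd1, an enzyme of polyamine synthesis, stood at 783, 406, 633 and 583 CPM in the Adult-NCD mice and 269, 412, 475 and 208 CPM in the Adult-HFD mice, and Adult-HFD replicates 2 and 3 lay within the Adult-NCD range. It shares 72.5% of its windows with other genes, mostly Amd2, so its counts are uncertain. The amino acid carrier Slc38a2 had a log2 fold change of 0.52 (SE 0.13). Secreted factors of muscle, 18 tested of 22, were higher in 8 and lower in 10 with a median of -0.08 (-0.18 without Adult-HFD replicate 4 to -0.03 without Adult-HFD replicate 2). The adjusted test of edgeR called 0 genes of this list, DESeq2's called 1 higher and 0 lower, and an unadjusted p under 0.05 was reached by 1 higher and 4 lower genes. Without Adult-HFD replicate 2, edgeR called 1 lower gene of it. Fgf1 had 0.60 (SE 0.14) and Metrnl -0.95 (0.27). Cell cycle genes, 10 tested of 17, had a median of -0.22 (-0.33 without Adult-NCD replicate 1 to -0.11 without Adult-NCD replicate 3), with 1 higher and 9 lower. The number of higher genes was 1, 2 or 3 in the fits that left out 1 mouse, with 3 without Adult-NCD replicate 3 or Adult-HFD replicate 3. With edgeR, 1 higher and 3 lower genes of the list reached an unadjusted p under 0.05 and 0 an adjusted one, while DESeq2 called 0 and 1 after adjustment.

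Interferon response genes were high in 2 of the 4 Adult-HFD mice. Irf7, a transcription factor that amplifies the interferon response, stood at 5.11, 5.54, 5.34 and 6.68 CPM in the Adult-NCD mice and 27.1, 6.77, 5.62 and 15.0 CPM in the Adult-HFD mice. Adult-HFD replicates 1 and 4 were well above the control mice, and replicates 2 and 3 were within or next to their range. Oasl2, an antiviral gene, showed the same mice apart, at 23.6, 8.04, 4.62 and 18.1 CPM in Adult-HFD replicates 1 to 4. Of the 18 interferon genes, 17 had a log2 fold change above 0 with a median of 0.77, and their mean level, in log2 CPM relative to the mean of the 8 mice, was -0.50, -0.18, -0.31 and -0.19 in Adult-NCD replicates 1 to 4 and 1.09, -0.31, -0.30 and 0.69 in Adult-HFD replicates 1 to 4. Groups overlapped for all 18. Complement genes of the same list went the other way, with 10 of 11 tested lower and a median of -0.73. Their mean level was 0.90, 0.16, -0.28 and 0.75 in Adult-NCD replicates 1 to 4 and -0.83, 0.68, -0.04 and -1.33 in Adult-HFD replicates 1 to 4, and the groups overlapped. Macrophage markers had 1.30, -0.33, -0.14 and 0.94 in Adult-NCD replicates 1 to 4 and -0.80, 0.45, 0.12 and -1.54 in Adult-HFD replicates 1 to 4, so in both lists Adult-NCD replicates 1 and 4 were the highest and Adult-HFD replicates 1 and 4 the lowest mice. In the whole list of inflammation, interferon and antigen presentation, 52 of 60 were tested with a median of 0.00 (-0.09 without Adult-NCD replicate 1 to 0.07 without Adult-HFD replicate 1). By edgeR's adjusted test 0 genes of the list passed, 13 higher and 5 lower genes had an unadjusted p under 0.05, and DESeq2 called 1 higher and 0 lower after adjustment. Without Adult-HFD replicate 2, 1 lower gene of it passed edgeR's adjusted test.

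Among whole pathway lists, genes of the matrix varied most among the Adult-HFD mice, with an SD of 0.651 for their mean log2 level. The interferon and complement parts described above varied more, with 0.709 and 0.885. Markers of fibroblasts and of tendon did so too, with 0.848 and 1.724. Of 53 collagen and matrix genes, 52 were tested, and 1 was higher and 51 were lower. The median was -0.70 (-1.002 without Adult-HFD replicate 2 to -0.56 without Adult-HFD replicate 4), and 2 passed edgeR's adjusted test, Col5a3 and Ccn2. Higher genes came to 3 without Adult-NCD replicate 1 or Adult-HFD replicate 4 and to 2 without Adult-NCD replicate 4. DESeq2 called 10 of them lower by adjusted p and the edgeR fit without a filter 18, 30 had an unadjusted p under 0.05 and 15 did not overlap, each of them lower. The list's mean level was 0.46, 0.36, 0.41 and 0.52 in Adult-NCD replicates 1 to 4 and -0.84, 0.40, -0.26 and -1.05 in Adult-HFD replicates 1 to 4. Adult-HFD replicate 2 lay at the level of the Adult-NCD mice, and the other 3 lay below. By edgeR's adjusted p, 2, 0, 2 and 0 matrix genes were lower without Adult-NCD replicate 1, 2, 3 or 4 and 0, 14, 1 and 0 without Adult-HFD replicate 1, 2, 3 or 4. Col5a3 passed in 3 and Ccn2 in 4 of these 8 fits, with adjusted p of up to 0.107 and 0.169 by edgeR, both without Adult-HFD replicate 1. Adult-HFD replicate 2 also held the most tendon and adipocyte RNA of its group, and whether its dissection differed was not tested. Fbn1, the microfibril protein fibrillin 1, had a log2 fold change of -1.24 (SE 0.26) and 20.1% of exon bases overlapping another gene. In bulk tissue, fewer cells of a type and less RNA per cell cannot be told apart.

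Markers of other cell types were summed in each mouse. The 6 fibroblast and progenitor markers, 6 tested, reached 898, 747, 1027 and 927 CPM in the Adult-NCD mice and 209, 719, 343 and 158 CPM in the Adult-HFD mice, with Col1a1 and Dcn the most abundant. Adult-HFD replicates 1, 3 and 4 were below every Adult-NCD mouse and replicate 2 was just under the lowest of these. The mean log2 level of the 6 genes, relative to the 8 mice, was 0.82, 0.37, 0.13 and 0.89 in Adult-NCD replicates 1 to 4 and -0.98, 0.57, -0.42 and -1.39 in Adult-HFD replicates 1 to 4, so by this measure Adult-HFD replicate 2 lay above Adult-NCD replicates 2 and 3, and each of the 6 genes overlapped between the groups. The 6 tendon markers, 6 tested, reached 232, 169, 192 and 203 CPM in the Adult-NCD mice and 62.1, 311, 174 and 21.5 CPM in the Adult-HFD mice, highest in Adult-HFD replicate 2 and lowest in replicates 4 and 1. Tnmd, a defining tendon marker, was at 0.683, 6.98, 2.56 and 0.529 CPM in Adult-HFD replicates 1 to 4. Of 7 adipocyte markers 6 were tested, Lep being too low, and they reached 287, 362, 452 and 334 CPM in the Adult-NCD mice and 241, 391, 245 and 351 CPM in the Adult-HFD mice, most of it Fabp4, which endothelial cells express too. Adipoq, the defining adipocyte marker, stood at 2.55, 7.17, 1.15 and 1.72 CPM in the Adult-NCD mice and 1.67, 12.1, 1.35 and 0.453 CPM in the Adult-HFD mice, so Adult-HFD replicate 2 and Adult-NCD replicate 2 held the most of it.

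Macrophage markers, 5 tested of 6 without Itgam, summed to 76.0, 25.3, 35.8 and 61.8 CPM in the Adult-NCD mice and 16.2, 41.4, 31.3 and 10.7 CPM in the Adult-HFD mice, with Csf1r and Cd163 the most abundant by group mean. Blood markers, 5 tested of 6 without Slc4a1, summed to 229, 143, 285 and 285 CPM in the Adult-NCD mice and 185, 131, 227 and 70.9 CPM in the Adult-HFD mice, mostly Hbb-bs and Hba-a1. In both lists Adult-HFD replicate 4 was the lowest mouse. Peripheral nerve markers, 6 tested of 6, summed to 182, 351, 185 and 155 CPM in the Adult-NCD mice and 249.9, 164, 188 and 127 CPM in the Adult-HFD mice, with Adult-NCD replicate 2 the highest. Endothelial markers, 6 tested of 6 with Cdh5 the most abundant, summed to 774, 743, 702 and 822 CPM in the Adult-NCD mice and 657, 788, 849.7 and 759 CPM in the Adult-HFD mice, satellite cell markers, 5 of 5 with Sdc4 the most abundant, to 36.5, 44.2, 54.5 and 45.1 CPM in the Adult-NCD mice and 38.9, 41.4, 39.2 and 43.6 CPM in the Adult-HFD mice, and smooth muscle and pericyte markers, 6 of 6 with Rgs5 the most abundant, to 1184, 1142, 1079.5 and 1153 CPM in the Adult-NCD mice and 1180.3, 1159, 1025 and 960.3 CPM in the Adult-HFD mice. The groups overlapped in each of these sums. The part of these cell types in the differences described above was not tested.

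**Figure D5:**
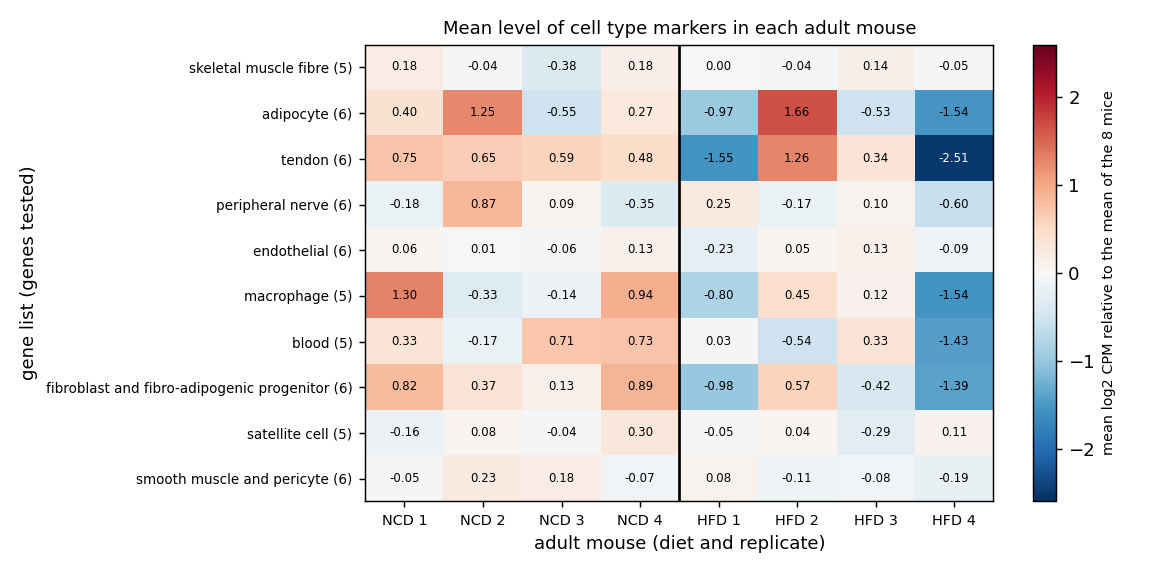
Mean log2 CPM of the tested markers of each cell type in each adult mouse, relative to the mean of the 8 mice. Tendon markers range from -2.51 in Adult-HFD replicate 4 to 1.26 in Adult-HFD replicate 2, and muscle fibre markers stay between -0.38 and 0.18.

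Among genes past the study's thresholds with groups that did not overlap and at least 5 CPM in the higher group, a few others had large log2 fold changes without passing the adjusted test. Acot1, a cytosolic acyl-CoA thioesterase, stood at 1.02, 0.915, 2.91 and 0.265 CPM in the Adult-NCD mice and 12.4, 4.58, 4.70 and 30.4 CPM in the Adult-HFD mice, with a log2 fold change of 3.37 (SE 0.72) and an adjusted p of 0.114 by edgeR. Its highest value was in Adult-HFD replicate 4, and 15.0% of its windows are shared, mostly with Acot2. E2f2, a transcription factor of the cell cycle, had -1.36 (0.37), and Hspa1b, an inducible heat shock protein gene with 55.8% of its windows shared with Hspa1a, had -1.32 (0.42). Hspa1b stood at 5.39, 4.67, 5.48 and 18.4 CPM in the Adult-NCD mice and 3.03, 3.67, 3.20 and 3.55 CPM in the Adult-HFD mice, so the size of this value rests on Adult-NCD replicate 4, far above the other 3 control mice.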

How the data were processed

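Raw gene counts were deposited by the authors, who made them from paired-end reads of polyadenylated RNA (FastQC 0.12.1, cutadapt, STAR 2.7.11a to GRCm38, featureCounts 2.0.3). Whether counting was stranded and how reads with several positions were treated is not stated. The 8 adult libraries were fitted on their own in R 4.3.3 with edgeR 4.0.16 (limma 3.58.1). Genes were kept by filterByExpr with a minimum count of 10, which left 13940, libraries were scaled by TMM, and diet was tested by a quasi-likelihood F test with Benjamini-Hochberg adjustment over these genes. Log2 CPM used a prior count of 2. The interaction of diet and age used all 16 libraries. The mitochondrial share was compared by exact permutation over 70 assignments. DESeq2 1.42.0 was run as an alternative, 1 of 6 besides the 8 fits that left out 1 mouse, and 2 more were added after seeing the data. Shared sequence was measured as the percentage of 75-base windows of a gene found in another gene. The scripts were tested on simulated data. Named genes were taken from those called, the 4 with the smallest p of each list, and the largest changes without overlap, and a few others were added for their role. Members and lists were chosen with earlier results of these data known.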

Additional observations from a re-analysis of the deposited data

Results flagged for a closer look

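Values that stood apart from the other 3 mice of their group were looked for in 101 genes and 204 groups by Dixon's test for 4 values, and 24 were found. In genes taken without regard to their values chance gives such a value in about 1 of 20 groups. These genes were chosen with their values known, they are not independent and the same mice recur, so that rate is no measure of them, and no reason was tested.

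In the Adult-NCD group, replicate 3 was high for Retsat, the retinol saturase gene, at 61.72 CPM, for the parvalbumin gene Pvalb at 11006 CPM, for Cox7a1 of cytochrome oxidase at 233.5 CPM, for the ribosomal genes Rpl23a at 41.034 CPM and Rpl41 at 197.74 CPM, and the lipase gene Pnpla2 at 510.19 CPM. It was low for Pld5 at 1.5548 CPM and for the fatty acid transporter gene Cd36 at 380.6 CPM. Replicate 4 was high for cardiac actin, Actc1, at 92.437 CPM and for the heat shock gene Hspa1b at 18.395 CPM, and replicate 2 was low for the glycogen-binding gene Stbd1 at 40.484 CPM.

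In the Adult-HFD group, replicate 4 was high for Angptl4 at 34.146 CPM, Rab11b at 141.72 CPM, the cholesterol carrier gene Npc1 at 242.65 CPM, Mtor at 105.46 CPM, Eif4ebp1 at 150.71 CPM and the ubiquitin ligase gene Fbxo32 at 1581.4 CPM. The same mouse stood apart for the desaturase gene Scd2 at 20.775 CPM and for the acetylcholine receptor gene Chrnd at 2.8707 CPM. Replicate 3 stood apart for Pld5 at 0.78251 CPM and Srebf2 at 28.242 CPM, replicate 1 for Gm48584 at 0.83446 CPM and the growth factor gene Fgf1 at 67.97 CPM, and replicate 2 for the adipocyte gene Adipoq at 12.13 CPM.

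The response to diet differed between adult and juvenile mice for Per1, by 1.136 on the log2 scale, and for Jun, by 1.803. These calls are fragile: 11 of the 16 fits that left out 1 mouse called 0 genes by edgeR, as did the fit with a block for the replicate number.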

How the results depend on the processing

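The number of genes called by adjusted p with edgeR moved with the method, while no called gene changed direction. Instead of 28 upregulated and 7 downregulated genes, the fit without a filter on low counts gave 141 and 133, DESeq2 gave 166 and 99, and a fit on all 16 samples gave 145 and 88. These held the 28 and 7 genes, except that the last held 6 of the 7. With size factors of DESeq2 in edgeR the counts were 30 and 7, and without mitochondrial genes 30 and 8. A block for the replicate number gave 12 and 3 genes, although the numbers do not pair the mice. For the study's thresholds, 386 and 690 genes became 666 and 1150 without the filter and 529 and 803 with DESeq2.

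Leaving out 1 mouse gave 5 to 47 upregulated and 2 to 27 downregulated genes by adjusted p. Upregulated genes were fewest without Adult-NCD replicate 2 and most without Adult-NCD replicate 3, and downregulated genes were most, 27, without Adult-HFD replicate 2. By the study's thresholds the range was 249 to 570 and 445 to 965, lowest in both without Adult-HFD replicate 4, at 249 and 445, and highest without Adult-NCD replicate 1 for higher genes and without Adult-HFD replicate 2 for lower ones. The mitochondrial share difference ranged from 5.44 to 9.46 percentage points.

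2 further fits were chosen after seeing the data and nothing rests on them. Without Adult-NCD replicate 3, picked for its low mitochondrial share, and Adult-HFD replicate 2, picked by a measured outcome, its matrix genes, 108 and 140 genes were called, a choice that favours more calls. Its counterpart, without Adult-NCD replicate 3 and Adult-HFD replicate 4, gave 55 and 9 by adjusted p, with 26 and 5 shared, and 222 and 423 by the study's thresholds.

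The 2 genes of the interaction of diet and age became 281 without the filter, 89 with DESeq2 and 0 with the replicate block, where edgeR had 1669 genes at an unadjusted p under 0.05 in the fit without a block. Leaving out 1 of 16 mice gave 0 genes in 11 of the 16 fits and 83 at the most. There were 83 without Adult-HFD replicate 2, 11 without Juvenile-NCD replicate 3, 10 without Juvenile-HFD replicate 1, 3 without Adult-NCD replicate 4 and 2 without Adult-NCD replicate 3.

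The cause of these shifts was not tested. With 4 mice a group, 1 muscle and 1 time point, small differences are missed, RNA levels say nothing of protein or flux, and whether the mice of a group shared cages or litters is not stated.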
